A study of Mus musculus with 12 samples.

Results

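The small RNAs described here are the bright signals of a mouse spleen array that were read by many probe sets with the very same value. A profile is the set of 12 array values of a probe set, and probe sets with equal values on all 12 arrays were merged into 1 profile. Members were chosen by level and identity: a profile was included when at least 5 probe sets shared it and its mean log2 intensity over the 12 arrays was at least 4. This gave 148 profiles, made of 1733 probe sets, out of 25112 distinct profiles and 36249 probe sets in all. Their brightness and their repeats are therefore given as description only. The rule uses no contrast between groups of mice, although it was set with earlier results of these data known.

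The mice were females of 8 weeks, injected intraperitoneally 3 times, on days 1, 3 and 5, with OVA (ovalbumin, a protein of egg white that serves as a model allergen, 0.05 mg per day) or with normal saline (NS). Spleens were taken at day 14 (4 OVA and 2 saline arrays) and at day 28 (4 OVA and 2 saline arrays). Mice with a high blood level of IgE against OVA were selected for the OVA arrays, so the OVA spleens represent mice with a strong antibody response. The labels do not tie each array to a separate mouse, and the p-values below therefore measure only the spread between arrays. The strain is not given in the sources used here.

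MicroRNAs (miRNAs) are short RNAs that guide Argonaute proteins to messenger RNAs, which are then silenced. Many mature miRNAs have the same sequence in many animals, and arrays of this kind carry probe sets for miRNAs of many species, so that 1 conserved RNA can be read by several probe sets. In the spleen, miRNAs take part in the maturation of B and T cells and of blood cell precursors. The deposited table pairs its numeric identifiers with no name, species or sequence. Sharing a value is therefore only a proxy for 1 small RNA listed for several species, and neither a miRNA name nor a cell type could be checked. The profiles are numbered here from 1, the brightest of the 148, to 148, the dimmest.

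The number of identical probe sets per profile ran from 5 to 55, with a median of 10. Of the 148 profiles, 44 were read by 5 to 7 probe sets and 18 by 20 or more. Profile 39 had the most, with 55, followed by profile 32 with 36 and profile 123 with 34. Repeats were common also among dim signals. Another 591 groups of at least 5 identical probe sets lay below the level minimum, and 517 of these had a mean log2 intensity under 1, near the floor of the array. The dimmest profile that was included stood at 4.15 and the brightest that was left out at 3.99. Among the bright profiles, 20 had exactly 5 probe sets and 24 had 4.

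The levels of the 148 profiles spanned 4.15 to 11.8 on the log2 scale, with a median of 7.62. The other 850 bright profiles, with 1 to 4 probe sets each, had a median of 6.45. The very brightest signals of the array were not repeated. All 20 profiles brighter than profile 1 came from a single probe set. Below them the repeated profiles were frequent, with 24 among the 100 brightest of all profiles and 59 among the 250 brightest. Profile 1, shared by 11 probe sets, ranked 21st by mean level and moved between places 18 and 37 over the arrays.

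The 10 brightest of the 148 lay close together, between 11.2 and 11.8. Profile 4, with 23 identical probe sets, was the steadiest between groups. It averaged 11.59 ± 0.02 in OVA and 11.65 ± 0.01 in saline spleens at day 14, and 11.52 ± 0.22 in OVA and 11.59 ± 0.03 in saline spleens at day 28 (SD, n = 4 OVA and 2 saline). Profile 5, also with 23 probe sets, varied more. It read 10.80, 10.97, 10.91 and 11.12 in OVA and 11.27 and 11.36 in saline spleens at day 14. At day 28 it read 11.44, 11.48, 12.09 and 12.14 in OVA and 10.87 and 10.94 in saline spleens. The arms of profile 5 did not overlap at either day, and their order was opposite at the 2 days. At day 28 profile 5 was called, with a log2 fold change of 0.88 (SE 0.20, limma adjusted p = 0.028) in the test described below, and profile 4 was not (-0.07, limma adjusted p = 0.89).

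Profiles 1 and 2, the brightest, moved alike. Profile 2, with 5 probe sets, read 11.52, 11.60, 11.55 and 11.89 in OVA and 11.81 and 11.89 in saline spleens at day 14. At day 28 it read 11.91, 11.98, 12.06 and 12.08 in OVA and 11.41 and 11.45 in saline spleens. The saline spleens of day 28 lay below all other arrays and the OVA spleens of day 28 above them. The day 28 difference was 0.58 log2 units (SE 0.13, limma adjusted p = 0.031) in profile 2 and 0.43 (SE 0.13, limma adjusted p = 0.11) in profile 1. Profile 7, with 20 probe sets, read 11.52, 11.68, 11.95 and 11.93 in OVA and 10.80 and 10.93 in saline spleens at day 28, and was 1.87-fold higher in OVA (limma adjusted p = 0.0097).

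Summed over the 148 profiles, each counted once, the linear intensity made up 13.7% to 18.2% of the total over all distinct profiles. At day 14 the share was 14.6% ± 0.64 in OVA (SD, n = 4) and 15.4% ± 0.28 in saline spleens (SD, n = 2). At day 28 it was 17.5% ± 0.77 in OVA (SD, n = 4) and 13.8% ± 0.18 in saline spleens (SD, n = 2). The 4 OVA arrays of day 28 held the highest shares (16.6%, 17.3%, 18.2% and 18.1%), and the 2 saline arrays of day 28 the lowest (13.9% and 13.7%). The summed intensity of the 148 profiles at day 28 was 1.30 times as high in OVA as in saline spleens, while at day 14 the ratio was 0.945. The other 850 bright profiles did not follow this order, with sums of 413870 to 421995 in OVA and 427619 and 429651 in saline spleens at day 28. Mean intensity over all probe sets, in which a repeated value counts once per probe set, was 47.4 to 51.7 in OVA and 40.9 and 41.0 in saline spleens at day 28. The medians over all probe sets lay between 1.03 and 1.09 on all arrays. Whether this mean has a part in the differences below was not tested beyond the other scalings given with them.

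**Figure D1:**
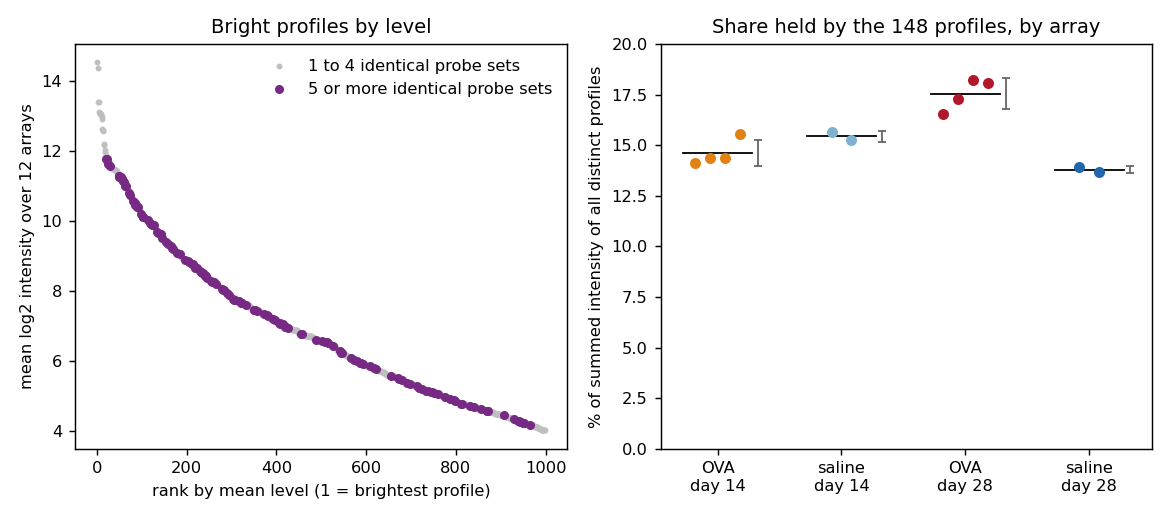
Left, mean log2 intensity over the 12 arrays against rank among all profiles, with the 148 profiles of 5 or more identical probe sets in purple and the other 850 bright profiles in grey. Right, percent of the summed intensity of all distinct profiles held by the 148, with 1 point per array, the group mean as a black line and the SD as a grey bar; OVA spleens at day 28 sit at 16.6% to 18.2%, above all other arrays.

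The scatter between arrays of a group was small for most of the 148 profiles. The pooled within-group SD ran from 0.077 to 0.678 log2 units, with a median of 0.221, and 85 profiles had an SD under 0.25. The other bright profiles had a median of 0.230. Scatter grew as level fell, with a median SD of 0.149 in the 27 profiles at 10 or more and 0.306 in the 43 profiles between 4 and 6. The group means of a profile spanned a median of 0.809 log2 units, and 42 of the 148 spanned more than 1. In the other bright profiles the median span was 0.554. Relative to their own within-group SD, the spans were 3.55 at the median in the 148 and 2.35 in the others.

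The profiles with the least scatter were numbers 29, 26, 12, 3 and 30, with levels of 9.90 to 11.6 and an SD of 0.077 to 0.090. Profile 29, with 19 identical probe sets, had the smallest scatter of the 148. At day 14 it read 9.67, 9.78, 9.76 and 9.90 in OVA and 9.98 and 10.03 in saline spleens. At day 28 it read 10.06, 10.17, 10.24 and 10.18 in OVA and 9.53 and 9.60 in saline spleens. The arms were separate at both days, and at day 28 the difference of 0.60 log2 units (SE 0.12), 1.52-fold, passed the test (limma adjusted p = 0.014).

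The profiles with the most scatter were numbers 133, 136, 128, 99 and 144, with an SD of 0.53 to 0.68. Profile 133, with 8 probe sets, read 4.64, 5.69, 5.15 and 4.31 in OVA and 4.49 and 3.39 in saline spleens at day 14. At day 28 it read 5.23, 5.23, 4.69 and 3.63 in OVA and 5.04 and 5.77 in saline spleens. Arms overlapped at both days.

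The place of a profile among all distinct profiles moved over the 12 arrays by 14 to 918 places, with a median of 153, and 43 of the 148 profiles were among the 250 brightest on every array. The number of the 148 among the 50 brightest signals of an array was 4 to 6 in OVA and 6 and 7 in saline spleens at day 14. At day 28 it was 8 to 13 in OVA spleens and 4 in each saline spleen.

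Groups were compared on log2 intensities in a linear model (limma) fitted to all 12 arrays. Each of the 11771 distinct profiles above the level filter entered once, and a profile was called when its Benjamini-Hochberg adjusted p over all of these was under 0.05. All 148 profiles lay above the filter. A fold change is OVA over saline, or day 28 over day 14.

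At day 14 no repeated profile passed the test between OVA and saline spleens. Limma called 0 of the 148, against 0.0085% of all profiles tested, and 21 had an unadjusted p under 0.05, against 6.94% of all profiles tested and 11.8% of the other bright ones. The lowest limma adjusted p among the 148 was 0.53. The log2 fold changes ran from -0.89 to 1.01, with a median of -0.15, and 96 of 148 were below 0. Over all profiles tested the median was 0.03.

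Profile 144, with 8 probe sets, had the most negative value at day 14. It read 3.54, 3.42, 3.50 and 4.40 in OVA and 4.51 and 4.70 in saline spleens, a log2 fold change of -0.89 (SE 0.38, limma adjusted p = 0.72). Profile 133 had the largest positive value, 1.01 (SE 0.48, limma adjusted p = 0.74). The arms of profile 144 were separate and those of profile 133 overlapped. Arrays of the arms did not overlap in 16 profiles with higher and 29 with lower values in OVA. Among all profiles tested such separation held in 8.54% with higher and 6.49% with lower values, and among the other bright ones in 10.4% and 11.2%.

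At day 28, 74 of the 148 repeated profiles differed between OVA and saline spleens, 64 higher and 10 lower in OVA, against 4.04% of all profiles tested. Among the other 850 bright profiles 23.9% were called, 124 higher and 79 lower. Higher calls were 2.88% of all profiles tested and 14.6% of the other bright ones, and lower calls 1.16% and 9.29%. The median log2 fold change of the 148 was 0.50, that of the other bright profiles -0.08 and that of all profiles tested 0.00. The called differences were moderate in size. The 64 higher profiles had log2 fold changes of 0.58 to 2.52 with a median of 1.00, and the 10 lower ones of -1.99 to -0.85 with a median of -1.20. Arrays of the arms did not overlap in 95 profiles with higher and 20 with lower values in OVA. Among all profiles tested this held in 13.1% with higher and 10.9% with lower values, and among the other bright ones in 27.3% and 29.9%.

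Profile 129 (5 probe sets, the first 20508983) had the largest positive difference. It read 5.33, 5.72, 6.31 and 6.61 in OVA spleens at day 28, against 3.23 and 3.72 in saline spleens, which is 5.72-fold higher, a log2 fold change of 2.52 (SE 0.32) with a limma adjusted p of 0.0015. The lowest OVA array exceeded the higher saline array by more than 1.5 log2 units. At day 14 the same profile read 4.33, 4.28, 4.32 and 4.82 in OVA and 4.78 and 5.36 in saline spleens. There, 3 of the OVA arrays lay below both saline arrays.

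Profile 144 (8 probe sets, the first 20503809) came next. It read 4.97, 4.76, 5.67 and 5.61 in OVA spleens at day 28, against 2.30 and 3.70 in saline spleens, which is 4.78-fold higher, a log2 fold change of 2.26 (SE 0.38) with a limma adjusted p of 0.0061. The 2 saline arrays lay 1.4 log2 units apart, and without saline day 28 replicate 1 the log2 fold change was 1.56 with a limma adjusted p of 0.085. Profile 120, with 22 probe sets, did not depend on a single array in this way. It read 5.68, 5.66, 6.41 and 6.47 in OVA against 4.11 and 3.66 in saline spleens, which is 4.50-fold higher, a log2 fold change of 2.17 (SE 0.29) with a limma adjusted p of 0.0019. Profiles 129 and 120 were called in all 25 other settings tried. Profiles 128 and 112 followed, 3.93-fold and 3.62-fold higher. Both were no longer called by limma without saline day 28 replicate 1 (limma adjusted p = 0.18 and 0.051), where their log2 fold changes were 1.59 and 1.79, against 1.97 and 1.85 with all arrays. With a pseudocount of 16 added before the logarithm, the log2 fold changes of profiles 129, 144, 120 and 128 were 1.56, 1.15, 1.43 and 1.29, so the folds of these dim profiles depend on the scale. Profile 128 was then no longer called (limma adjusted p = 0.080), while profiles 129, 144 and 120 were.

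In the other direction, profile 63 (9 probe sets, the first 20502123) had the largest difference. It read 7.75, 7.86, 6.76 and 6.91 in OVA spleens at day 28, against 9.50 and 9.12 in saline spleens, which is 3.96-fold lower, a log2 fold change of -1.99 (SE 0.33) with a limma adjusted p of 0.0060. Every OVA array was more than 1 log2 unit below both saline arrays. Profiles 51 (9 probe sets, the first 20500472) and 52 (16 probe sets) were a near-identical pair. Profile 51 read 8.36, 8.45, 7.30 and 7.32 in OVA against 9.85 and 9.39 in saline spleens, and profile 52 read 8.38, 8.40, 7.37 and 7.26 against 9.84 and 9.28. These were 3.38-fold and 3.26-fold lower, with a limma adjusted p of 0.012 for each. Over the 12 arrays their values differed by at most 0.11 log2 units (Pearson r = 0.996). Profiles 37 and 116, 2.61-fold and 2.43-fold lower, completed the 5 most negative. All 5 lost their call without saline day 28 replicate 1 (limma adjusted p of 0.075 to 0.24), where the log2 fold changes were -1.80, -1.53, -1.42, -1.13 and -1.12 for profiles 63, 51, 52, 37 and 116. Profile 116 also lost it without any of 5 other arrays.

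**Figure D2:**
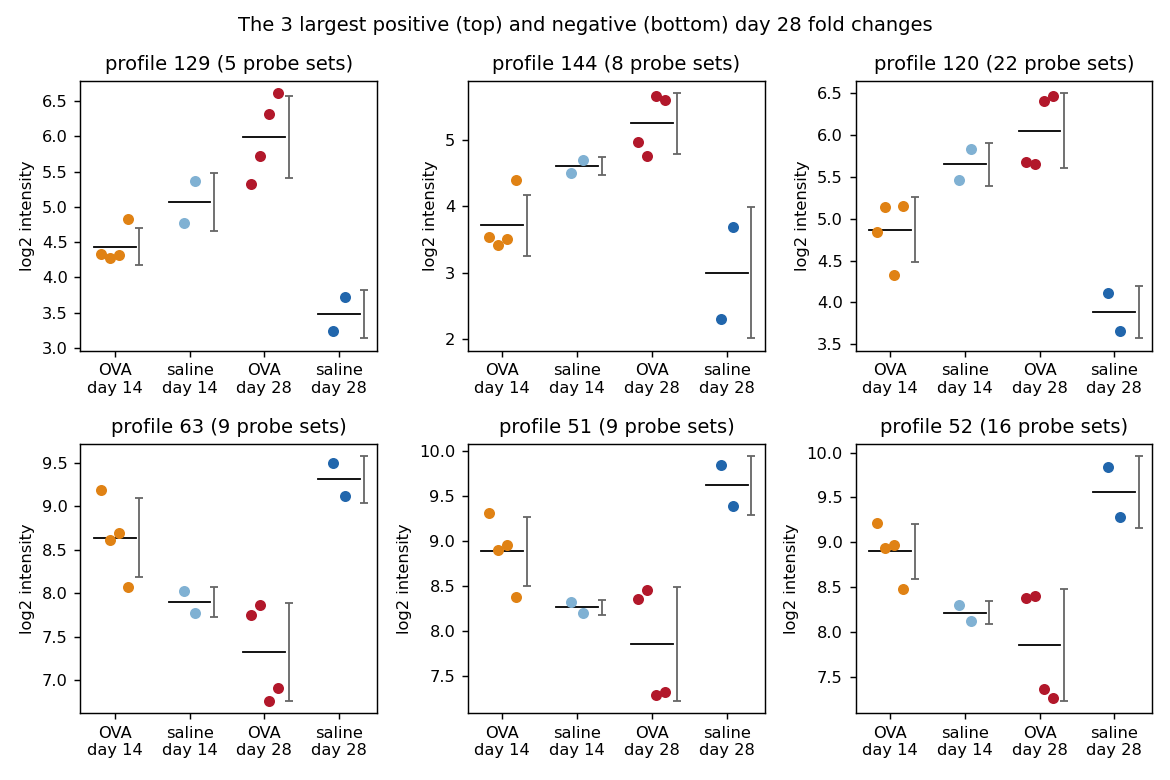
Log2 intensity of the 3 profiles with the largest positive day 28 fold change (top) and the 3 with the largest negative one (bottom), with 1 point per array, the group mean as a black line and the SD as a grey bar. Each panel has its own vertical range. In all 6 the group means of the saline and the OVA spleens of day 28 lie at opposite ends of the 4 means, while single arrays of other groups can lie among their arrays.

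The number of calls depended on few arrays, while the median difference over the 148 moved little. Dropping OVA day 28 replicates 3 and 4 together left 10 calls, all higher in OVA. The share over all profiles tested was then 0.646%, against 4.04% with all arrays. Fewer of the 148 were also called without saline day 28 replicate 1 or 2, and the share over all profiles tested fell as well. The median log2 fold change of the 148 was 0.45 without OVA day 28 replicates 3 and 4. It was 0.52 and 0.54 without saline day 28 replicates 1 and 2, against 0.50 with all arrays. Where an arm kept 1 saline array, its spread was taken from the other groups. Each of the 74 kept its sign in these settings. Because the 74 were chosen with all arrays, a kept sign is favoured. OVA day 28 replicates 3 and 4 stood apart from replicates 1 and 2 in 81.1% of the 148 profiles, above them in 70 and below them in 50, and in 68.9% of the other bright profiles. Both lay above both of the others in 55 of the 64 higher profiles, and both lay below in all 10 lower ones. Relative to the mean of the saline arrays, the 64 higher profiles stood at a median of 0.81 in replicates 1 and 2 and 1.26 in replicates 3 and 4. The 10 lower ones stood at -0.83 in replicates 1 and 2 and -1.58 in replicates 3 and 4. After quantile normalization limma called 71 of the 148 (3.75% of all profiles tested), with a median log2 fold change of 0.47. After each array was centred on its bright profiles it called 69 (3.97%), with a median of 0.41.

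The saline group of day 28 was itself at an extreme. It was the lowest of the 4 groups in 62 of the 64 higher profiles and the highest in all 10 lower ones. These profiles were chosen for a distance from this group, which favours such places. Over all 148 profiles, with no choice by change, the saline spleens of day 28 were the lowest group in 90 and the OVA spleens of day 28 the highest in 88. These shares were 60.8% and 59.5% in the 148, against 29.9% and 34.6% in the other bright profiles.

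**Figure D3:**
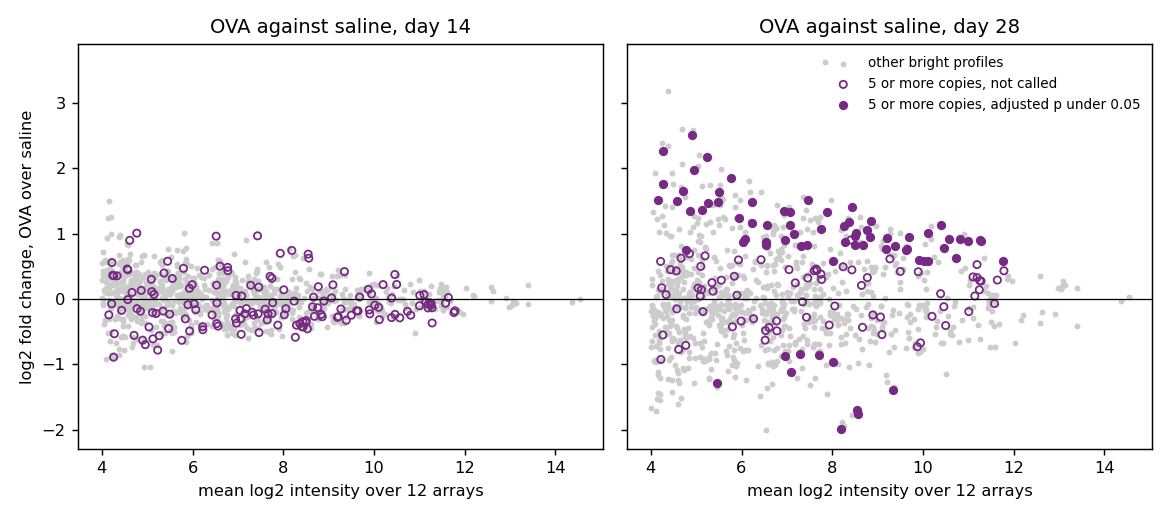
Log2 fold change of OVA over saline against mean log2 intensity at day 14 (left) and day 28 (right), with the 148 profiles in purple, filled where the adjusted p is under 0.05, and the other bright profiles in grey. No purple point is filled at day 14, whereas 64 above and 10 below the zero line are filled at day 28.

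The day 28 difference was found at every brightness. At a level of 10 or more, 12 of 27 profiles were higher in OVA and 0 lower, with a median log2 fold change of 0.43. Between 8 and 10, 19 of 39 were higher and 5 lower, with a median of 0.60. Between 6 and 8, 17 of 39 were higher and 4 lower, with a median of 0.45. Between 4 and 6, 16 of 43 were higher and 1 lower, with a median of 0.50. In the other bright profiles the medians of these 4 ranges lay between -0.21 and -0.05.

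It was larger in the classes with 12 or more identical probe sets than in the classes with fewer. The median log2 fold change at day 28 was 0.33 in the 44 profiles with 5 to 7 copies, 0.27 in the 47 with 8 to 11, 0.82 in the 39 with 12 to 19 and 0.92 in the 18 with 20 to 55. Of these, 29.5%, 29.8%, 61.5% and 72.2% were called higher in OVA. Below 5 copies the medians were -0.10 for the 693 bright profiles with a single probe set and 0.09 for the 157 with 2 to 4, of which 12.8% and 22.3% were called higher. Level was not equal between these classes. Split at a level of 8, the medians of the classes from 5 to 7 up to 20 to 55 copies were 0.53, 0.14, 0.80 and 0.88 in the brighter profiles and 0.21, 0.35, 0.85 and 1.13 in the dimmer ones. Profiles are not independent replicates, so this is a description with no test.

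The most repeated profiles illustrate it. Profile 39, with 55 probe sets, read 9.38, 9.57, 10.11 and 10.02 in OVA spleens at day 28, against 8.77 and 8.90 in saline spleens, which is 1.91-fold higher, a log2 fold change of 0.93 (SE 0.21) with a limma adjusted p of 0.023. Profile 32, with 36 probe sets, read 9.81, 10.10, 10.63 and 10.60 against 9.22 and 9.45, 1.93-fold higher (limma adjusted p = 0.025). Profile 123, with 34, was 2.57-fold higher and profile 84, with 28, 1.98-fold higher (limma adjusted p = 0.019 and 0.012). All of them were separate between arms. Profile 14, also with 28, was not called, at 11.10, 11.09, 10.68 and 10.73 in OVA and 11.15 and 11.04 in saline spleens (log2 fold change -0.19, SE 0.15, limma adjusted p = 0.64). Profiles 9 and 4, with 25 and 23, were not called either (log2 fold changes 0.14 and -0.07, limma adjusted p = 0.75 and 0.89). Of the 18 profiles with 20 to 55 probe sets, 13 were called higher and 0 lower.

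**Figure D4:**
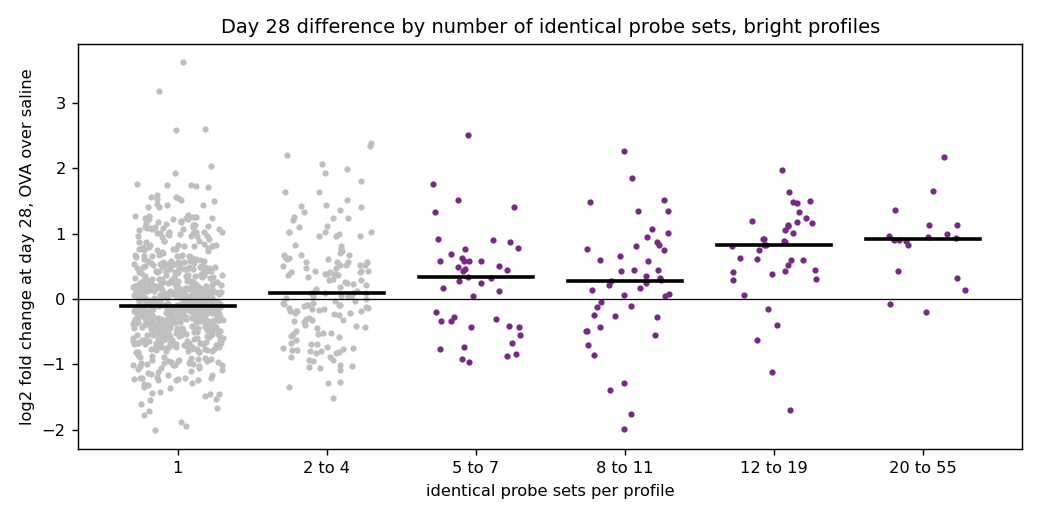
Log2 fold change of OVA over saline at day 28 by number of identical probe sets, for all 998 bright profiles, with 1 point per profile (spread sideways at random within a class) and the class median as a black line. The purple classes are the 148 profiles, whose medians run from 0.27 to 0.92, and the grey classes have medians of -0.10 and 0.09.

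The OVA effect differed between the days in 64 of the 148 profiles when limma tested that difference directly, and the day 28 effect was the higher in 57 and the lower in 7. Among all profiles tested 2.79% were called, 2.0% with the higher and 0.79% with the lower effect at day 28. Among the other bright ones 16.6% were called, 11.1% and 5.53% in these directions. The median difference was 0.66 log2 units in the 148, and -0.03 over all profiles tested. For profile 129 the effect was 2.52 at day 28, against -0.63 at day 14, and the 2 differed by 3.15 (SE 0.45, limma adjusted p = 0.0038). Profile 144 had effects of 2.26 and -0.89, which also differed by 3.15 (SE 0.54, limma adjusted p = 0.0089). Profile 63 had effects of -1.99 and 0.74, a difference of -2.73 (SE 0.47, limma adjusted p = 0.0095). Without saline day 14 replicate 2, the adjusted p of profiles 144 and 63 missed the threshold (0.054 and 0.056), and so did that of profile 63 without saline day 28 replicate 1 (0.051).

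Opposite signs at the 2 days were the usual case. The effect was positive at day 28 and negative at day 14 in 92 profiles, and negative at day 28 and positive at day 14 in 35. It was positive at both days in 17 profiles and negative at both in 4. The opposite signs made up 62.2% and 23.6% of the 148, against 33.1% and 42.1% of the other bright profiles. The order saline day 28, OVA day 14, saline day 14, OVA day 28 from lowest to highest mean held in 68 of the 148 profiles, 45.9%, and in 19.3% of the other bright ones. Its exact reverse held in 19 profiles, 12.8%, against 21.6%.

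The count of 64 moved with single arrays, and the median difference moved little. Fewer of the 148 were called without saline day 14 replicate 1 or 2, or without saline day 28 replicate 1. The share over all profiles tested fell in these fits as well. The median difference of the 148 was 0.63 and 0.74 log2 units without saline day 14 replicates 1 and 2. It was 0.67 without saline day 28 replicate 1, against 0.66 with all arrays. In these fits the spread of a lone saline array was taken from the other groups. Dropping OVA day 28 replicate 3 left 37 calls, replicate 4 left 40 and both together left 25. Over all profiles tested the shares called were then 1.63%, 1.79% and 1.23%, against 2.79% with all arrays. Dropping replicate 2 of the OVA arrays of day 14 left 42, against 2.0% of all profiles tested. After quantile normalization 53 of the 148 were called (2.74% of all profiles tested), with a median difference of 0.62. After each array was centred on its bright profiles 55 were called (2.63%), with a median of 0.60.

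**Figure D5:**
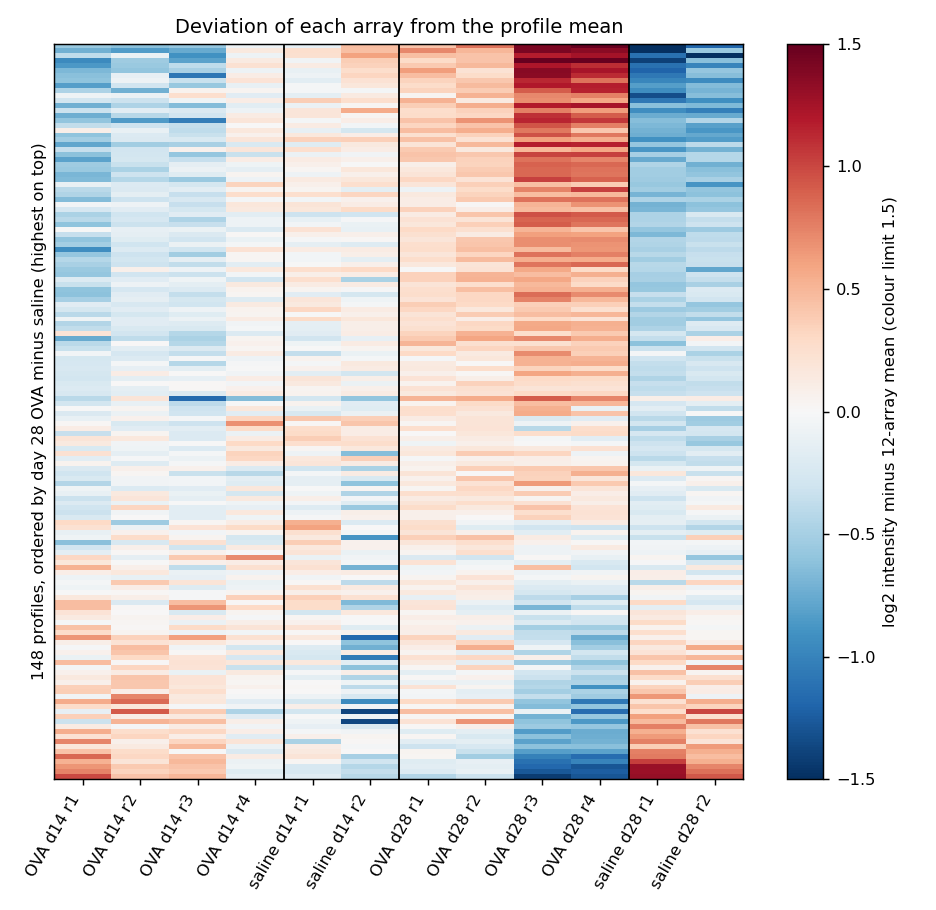
Deviation of each array from the 12-array mean of the profile, in log2 units, for the 148 profiles in rows, ordered by the day 28 difference with the highest on top, and the 12 arrays in columns by group (d, day; r, replicate). Red is above and blue below the mean, colours end at 1.5, and OVA day 28 replicates 3 and 4 and the saline arrays of day 28 show the strongest and opposite colours.

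The first principal component of the 148 profiles held 77.2% of their variance, and 102 profiles loaded on it positively and 46 negatively. OVA spleens of day 28 scored 2.14, 2.75, 7.83 and 7.75 and saline spleens of day 28 -6.69 and -5.11. At day 14 OVA spleens scored -4.60, -2.86, -3.39 and 0.16 and saline spleens 0.32 and 1.70. The component was computed from the same values as the comparisons and adds no separate evidence. Over the 148 profiles OVA day 14 replicate 4 was closest to saline day 14 replicate 1 (Pearson r = 0.995), and both saline arrays of day 14 were closest to that OVA array. For the other 9 arrays the closest one belonged to the same group. Profiles moved together in pairs more often than the other bright ones. Pearson r over the 12 arrays exceeded 0.9 in 11.0% of the 10878 pairs among the 148 and in 1.44% of pairs among the other bright profiles, all of which share the same arrays.

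Within OVA spleens, 48 of the 148 profiles were called higher at day 28 than at day 14 and 4 lower, together 52. Among all profiles tested 2.34% were called, 1.94% higher and 0.408% lower, and among the other bright ones 13.8%, 9.53% higher and 4.24% lower. Arrays of the 2 days did not overlap in 66 profiles with higher and 9 with lower values at day 28, against 4.71% and 2.47% of all profiles tested and 18.1% and 11.9% of the other bright ones. The median log2 change was 0.35, and 0.01 over all profiles tested. On the values given above profile 129 rose 2.94-fold, a log2 change of 1.55 (SE 0.26) with a limma adjusted p of 0.012, and all 4 arrays of day 28 lay above all 4 of day 14. Profile 102, with 9 probe sets, read 6.60, 6.77, 7.42 and 7.47 at day 28 and 5.50, 5.76, 5.58 and 6.06 at day 14, a rise of 2.52-fold by 1.33 log2 units (SE 0.20, limma adjusted p = 0.0076). Profile 123 rose 2.64-fold (limma adjusted p = 0.013). Profile 63 fell 2.49-fold, a log2 change of -1.32 (SE 0.27) with a limma adjusted p of 0.026, and profile 116 fell 2.13-fold (limma adjusted p = 0.041).

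This comparison rested on OVA day 28 replicates 3 and 4. Limma called 0 of the 148 without both of them, and 0.0% of all profiles tested. It called 3 without replicate 3 and 4 without replicate 4, against 0.348% and 0.442% of all profiles tested. The median log2 change was 0.28 without both, against 0.35 with all arrays. The count was 9, 15 and 19 without OVA day 14 replicates 1, 2 and 3 in turn, against 0.671%, 1.05% and 1.16% of all profiles tested. It was 29 after each array was centred on its bright profiles, against 1.76%.

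Within saline spleens, 3 of the 148 profiles were called between the days, all lower at day 28. Among all profiles tested 0.246% were called, 0.085% higher and 0.161% lower, and among the other bright ones 1.18%, 0.118% higher and 1.06% lower. They were numbers 86, 115 and 119, of which number 86 lies outside the rule for named profiles and was named after its values were seen. Profile 119, with 15 probe sets, read 4.34 and 4.24 at day 28 and 5.44 and 5.83 at day 14, a fall of 2.54-fold with a log2 change of -1.35 (SE 0.19) and a limma adjusted p of 0.028. Profile 115, with 19 probe sets, read 4.40 and 4.55 at day 28 and 5.84 and 5.73 at day 14, a fall of 2.49-fold (limma adjusted p = 0.028). The median log2 change of the 148 was -0.32, and 100 of them were below 0, against a median of 0.03 over all profiles tested. Each arm of this comparison had 2 arrays. Calls among these 3 were lost in every fit that left out 1 saline array. Limma called 8 of the 148 without OVA day 14 replicate 4, against 0.527% of all profiles tested. That array enters only through the pooled spread. With all arrays 68 had an unadjusted p under 0.05, against 9.96% of all profiles tested and 29.5% of the other bright ones. In the fits that left out 1 saline array, the spread of the lone saline array was taken from the other groups. The median log2 change of the 148 was then -0.34 to -0.27. These comparisons over time share their arrays with the comparisons of OVA and saline, so their values are given side by side and not as separate evidence.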

How the data were processed

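Per the labels' protocols, total RNA with its small RNA fraction was isolated from frozen spleens and labelled with biotin by a FlashTag kit of Affymetrix. In the deposited table each value is a linear intensity for a probe set on an array, from 0.627 to 24076; how the authors summarised, background-corrected and normalized these intensities is not given in the sources used here, nor are scan or slide batches. Values were converted to log2 with no pseudocount. Probe sets with equal values on all 12 arrays formed 1 profile, so that copies of 1 measurement were not tested repeatedly. Profiles with a mean log2 of at least 0.05 (the median over all probe sets) entered the test (11771, from 18125 probe sets). A model with 1 mean per group was fitted with limma 3.58.1 in R 4.3.3 (lmFit, eBayes, 8 residual and 4.75 prior degrees of freedom, two-sided, Benjamini-Hochberg). The procedure was tested on simulated data. The number of arrays limits the precision. Named by rule were the 10 brightest profiles, the 5 with most copies, the 5 with the most and the 5 with the least scatter, and the 5 largest changes in each direction per comparison. The members, rules and settings were chosen with earlier results of these data known.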

Additional observations from a re-analysis of the deposited data

Results flagged for a closer look

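The OVA effect differed between the days in 64 of the 148 profiles by limma's adjusted p for the difference itself. Among the profiles with the largest such differences, the effect at day 28 minus that at day 14 was 3.15 log2 units for profiles 144 and 129 (3.148 and 3.147), 2.95 for profile 120, 2.67 for profile 128 and 2.49 for profile 112. It was -2.73 for profile 63, -2.39 for profile 52, -2.38 for profile 51, -1.86 for profile 116 and -1.80 for profile 37. Of 24 other settings, some of which left a lone saline array, the call was lost in 12 for profile 116 and 10 for profile 37. It was lost in 7 for profile 128, 4 each for profiles 51 and 52, 2 for profile 63 and 1 for profile 144. For profiles 129, 120 and 112 it was lost in 0. These were named for a large difference, which favours a large value.

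In 2 of 76 checks for an array far from the other 3 of its OVA group, OVA day 14 replicate 4 stood apart. It read 4.82 for profile 129, where the other arrays lay between 4.28 and 4.33, and 4.40 for profile 144, where they lay between 3.42 and 3.54. Chance alone would mark about 5% of such checks.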

How the results depend on the processing

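The count of profiles called moved by more than 1.5 times in the following settings, and the cause was not tested. Shares over all profiles tested stand in brackets. Ranges over fits without 1 OVA array are given whether or not they moved as much. Fits that left a lone saline array in a group are not counted, except in the range over fits without 1 array for the difference between days. The low end of that range comes from such a fit, in which the spread of the lone array was taken from the other groups. For OVA against saline at day 28, with 74 called (4.04%), the count was 49 with a block for the replicate number (2.23%). It was 10 without OVA day 28 replicates 3 and 4 (0.646%), and 51 to 76 when 1 OVA array was left out (2.27% to 4.23%). At day 14, with 0 called (0.0085%), it was 21 at an unadjusted p under 0.05 (6.94%). It was 0 in all settings that left out 1 OVA array (0.0% to 0.017%). For the difference between days, with 64 called, it was 39 with a pseudocount of 16 added, 106 unadjusted, 25 without OVA day 28 replicates 3 and 4, and 13 to 70 when 1 array was left out. The shares for the difference between days were 2.79% with all arrays, 1.4% with the pseudocount, 13.3% unadjusted and 1.23% without OVA day 28 replicates 3 and 4. When 1 OVA array was left out, the count for this difference was 37 to 70 (1.63% to 3.53%). For OVA day 28 against day 14, with 52 called (2.34%), the count was 29 after centring on the bright profiles (1.76%). It was 33 in a fit to the compared groups alone (1.74%). It was 32 with the pseudocount (1.3%), 108 unadjusted (12.4%) and 0 without OVA day 28 replicates 3 and 4 (0.0%). When 1 OVA array was left out it was 3 to 59 (0.348% to 2.81%). For saline day 28 against day 14, with 3 called (0.246%), it was 5 after quantile normalization (0.255%) or centring on the tested profiles (0.314%). It was 8 with every probe set entered on its own (0.637%), 11 with an intensity trend and robust variances (0.459%) and 11 with a block for the replicate number (0.79%). It was 0 in a fit to the compared groups alone (0.178%), 1 with the pseudocount (0.034%) and 68 unadjusted (9.96%). Without OVA day 28 replicates 3 and 4 it was 5 (0.425%), and when 1 OVA array was left out 2 to 8 (0.17% to 0.527%). The direction of the named fold changes was kept in all settings, but with the pseudocount the difference between days was 1.96, 1.61, 1.97, 1.72 and 1.87 log2 units in profiles 129, 144, 120, 128 and 112. For this difference limma then no longer called profiles 128, 52, 51, 116 and 37 (limma adjusted p of 0.061 to 0.13). Profiles 129, 144, 120, 112 and 63 stayed called. Deviations of arrays with the same replicate number correlated in some pairs and not in others (r of -0.31 to 0.50 over the bright profiles), and of the 4 OVA arrays of day 14 only replicate 1 was closest to its own number at day 28. A slide or scan block could not be fitted, since no batch is recorded in the table. The number of profiles was 172 with 4 or more copies, 104 with 8 or more, 163 and 127 at level minima of 3 and 5, and 148 after rounding to 2 decimals.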
